A study of Mus musculus with 32 samples.

Results

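The microglia genes described here are 34 genes of the mouse striatum, listed by symbol for what they are known to do in microglia. The list was made after earlier results of these data had been seen. Each symbol had 1 gene identifier in the GENCODE M21 annotation, out of 54532 genes in the count table. They fall into 3 roles: 12 homeostatic and identity genes, 14 general microglial and myeloid genes, and 8 activated genes. Of the 34 genes, 32 passed the filter on low counts and were tested. The 2 that did not were the activated genes Cst7, a protease inhibitor, with 1 to 10 reads per mouse, and Itgax, an integrin chain, with 1 to 13 reads per mouse.

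Microglia are the resident macrophages of the brain. In the healthy brain they carry a set of homeostatic genes, among them the fractalkine receptor Cx3cr1, the purinergic receptors P2ry12 and P2ry13 and the membrane protein Tmem119, and they depend on signalling through the receptor Csf1r. When they meet amyloid, dying cells or damaged myelin, they are known to turn down these homeostatic genes and to turn up phagocytic and lipid-handling genes such as Cst7, Itgax, Spp1 and Axl, in part through the receptor TREM2 and its adaptor TYROBP.

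The 32 mice were littermates on a C57BL/6J background whose striata were dissected at 6 months, with 8 mice in each of 4 genotypes: wild-type, zQ175, Msh3-/- and the double mutant zQ175:Msh3-/-. The zQ175 allele, a model of Huntington's disease, is a long CAG repeat knocked into mouse Htt, and both zQ175 groups carry it in every cell. MSH3 is a mismatch repair protein on which lengthening of the repeat in somatic cells depends, and both Msh3-/- groups carry a CRISPR knockout in every cell, from a single line. Each group had 4 males and 4 females, apart from zQ175:Msh3-/- with 5 males and 3 females. The comparisons ask what the zQ175 allele changed, on either Msh3 genotype, and whether loss of Msh3 changed it.

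The counts summed to between 12359347 and 25030335 reads per mouse. Msh3, the targeted gene, lay between 22.9 and 27.5 CPM (counts per 1000000 reads) in wild-type and between 22.8 and 27.4 CPM in zQ175 mice. It lay at 10.4 to 13.6 CPM in Msh3-/- and 11.1 to 14.2 CPM in zQ175:Msh3-/- mice, so its levels separated as labelled. In knockout cortex the paper reported Msh3 mRNA of the deleted exons as ablated and MSH3 protein as not detected. The counts here are for the whole gene, and the reads that remained were not assigned to exons. The spiny neuron markers that define striatum were present in every mouse, and their summed level was 7087.6 to 8708.1 CPM in wild-type and 3787.8 to 4996.3 CPM in zQ175 mice. Choroid plexus markers, from tissue next to the striatum, varied widely within each genotype, from 19.0 to 2917.2 CPM over all mice, and were highest in zQ175:Msh3-/- male 4. Among mice of its genotype wild-type male 2 was the highest for 15 of the 32 tested microglia genes, and zQ175:Msh3-/- male 5 the lowest for 11. A microglia gene that was lower in these whole-tissue samples could reflect fewer microglia or less of its RNA in each cell, and the data cannot tell these apart.

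Compared per transcript length, the 34 genes ran from 228.1 to 0.225 TPM. Levels here are TPM (transcripts per 1000000 transcripts), averaged over the 32 mice. Sparc, a secreted matrix protein, was the highest, with 228.1 TPM. The complement genes followed, with C1qa at 104.4 TPM, C1qb at 84.1 TPM and C1qc at 76.4 TPM, and then Csf1r at 61.6 TPM. The range over single mice did not overlap between Sparc and C1qa, with the lowest Sparc value at 171.2 TPM and the highest C1qa value at 122.4 TPM, whereas the ranges of C1qb, from 72.8 to 103.6 TPM, and C1qc, from 66.2 to 87.3 TPM, did. The homeostatic genes ran from Sparc down to Olfml3 at 9.30 TPM, with P2ry12 at 44.0 TPM and Cx3cr1 at 37.1 TPM. The activated genes began lower but overlapped them, with Axl, a receptor for dying cells, at 24.1 TPM and Cd68, a lysosomal protein, at 19.2 TPM. The lowest were Tlr2 at 1.09 TPM, Tlr4 at 0.705 TPM, Cst7 at 0.434 TPM and Itgax at 0.225 TPM.

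**Figure D1:**
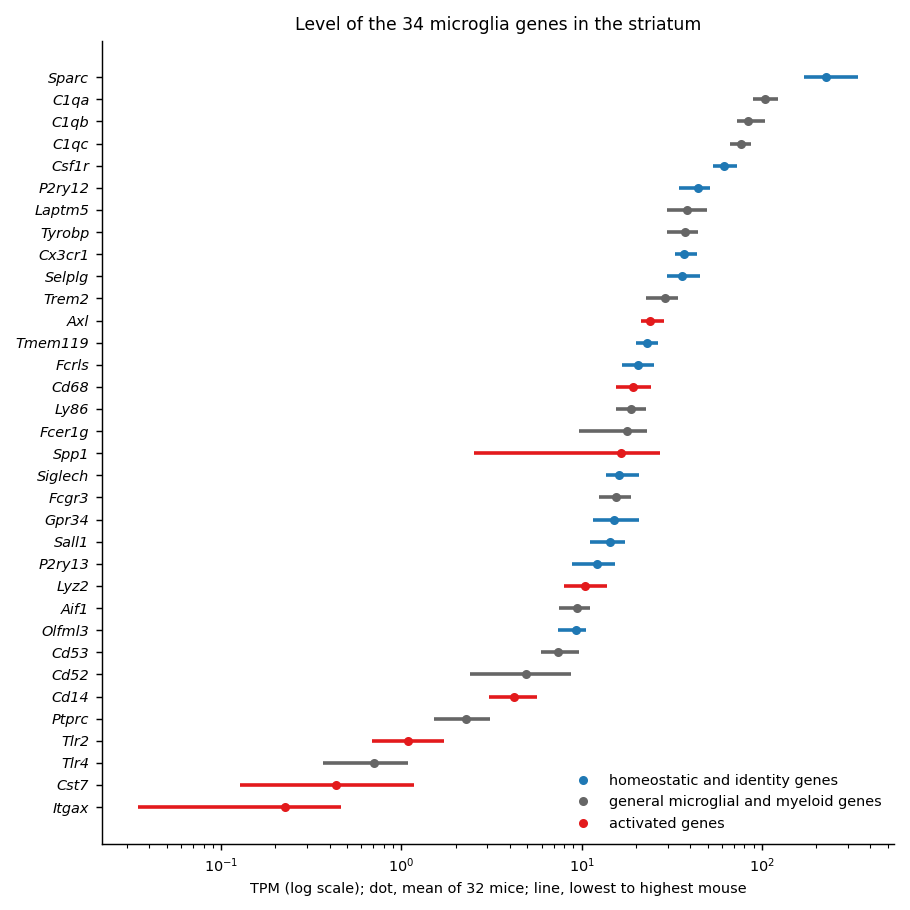
Level of each of the 34 microglia genes in TPM on a log axis, coloured by role; dots are means of 32 mice and lines run from the lowest to the highest mouse. Sparc is highest at 228.1 TPM, the activated genes Cst7 and Itgax are lowest, and Spp1 runs from 2.53 to 27.2 TPM.

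Mice of the same genotype differed little for most of these genes. The median within-genotype standard deviation of log2 CPM was 0.147 over the 32 tested genes and 0.136 over all 16610 genes tested. C1qc was the steadiest with 0.08, and Spp1, the secreted protein osteopontin, the most variable with 0.613. Reads of neighbouring genes could enter a few of the counts. Exons of genes on the opposite strand cover 14.5% of the exon bases of Cd52 and 15.1% of those of Csf1r, and whether counting used strand is not given in the sources used here. Exons of a gene on the same strand cover 18.8% of those of Spp1. Gpr34 lies within the gene Cask, and P2ry12 and P2ry13 within Med12l, each on the opposite strand, with almost no shared exon bases.

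A few microglia genes fell by more than 1.2-fold with the zQ175 allele, and Sparc alone did so on both Msh3 genotypes. Changes under 1.2-fold passed the adjusted p in 3 more genes with Msh3 and in 10 more without it, and none of the 6 tested activated genes rose. A gene is said below to have fallen or risen only if its adjusted p was under 0.05 and its fold change at least 1.2. In zQ175 against wild-type mice, P2ry13 and Sparc fell and no microglia gene rose, which is 2 of 32 genes, or 6.25%, beside 11.6% of all genes tested. In zQ175:Msh3-/- against Msh3-/- mice, Sparc, the signalling adaptor Tyrobp and the endotoxin receptor Tlr4 fell and none rose, which is 9.38% of the 32, beside 10.6% of all genes. In the average over both Msh3 genotypes, Sparc and Tlr4 fell, again 6.25%, beside 13.7% of all genes. These shares were at or below the share in all genes.

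With the adjusted p alone, changes under 1.2-fold are counted too. In zQ175 against wild-type mice 5 of 32 microglia genes were then lower and 0 higher, 15.6% lower beside 13.5% of all genes lower and 13% higher. In zQ175:Msh3-/- against Msh3-/- mice 13 were lower and 0 higher, 40.6% lower beside 12.3% of all genes lower and 11.8% higher. In the average over both Msh3 genotypes 18 were lower and 1 higher, 56.2% lower beside 18.7% of all genes lower and 20.9% higher. The genes come from the same mice and, in part, from the same cells, so they are not independent of each other. They were also listed with earlier results of these data known. The zQ175 against wild-type share was near that of all genes, and those of the other comparisons were above it.

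The median log2 fold change lay below that of all genes in every role. In the average over both Msh3 genotypes it was -0.13 for the homeostatic and identity genes, -0.15 for the general microglial and myeloid genes and -0.15 for the activated genes, beside 0.01 for all genes tested. Estimates were below 0 for 11 of 12, 13 of 14 and 6 of 6 tested genes of these roles. In zQ175 against wild-type mice the medians were -0.12, -0.09 and -0.08, and in zQ175:Msh3-/- against Msh3-/- mice -0.15, -0.17 and -0.14. Within a role the estimates were small: averaged over both Msh3 genotypes they ran from -0.44 for Tlr4 to 0.12 for Sall1, a transcription factor of microglial identity. These values depend on scaling. In a limma fit of log2(TPM + 0.1) the median averaged over both Msh3 genotypes was -0.07 for the microglia genes and 0.08 for all genes, a shift of 0.07 for all genes, and 66.5% of all called genes were higher rather than the 46.1% found with counts.

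**Figure D2:**
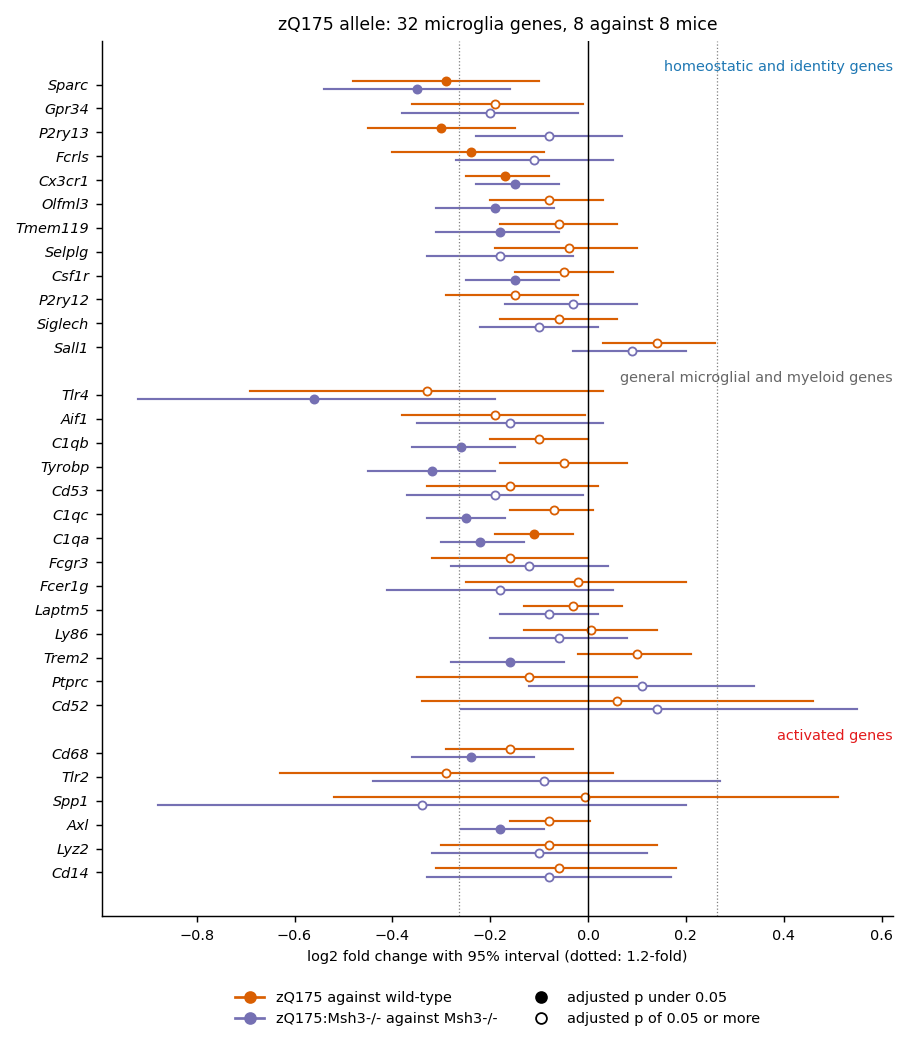
Log2 fold change with its 95% interval for the zQ175 allele in 32 microglia genes, grouped by role and sorted within a role, for mice with Msh3 (orange) and without it (purple), 8 mice against 8; filled dots have an adjusted p under 0.05. Most estimates lie left of 0 in both comparisons, few pass the dotted 1.2-fold line, and Sall1 lies right of 0 in both.

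Of the homeostatic and identity genes, P2ry13, a purinergic receptor for ADP, lay at 13.3, 14.7 and 17.2 CPM (lowest, median and highest of 8 mice) in wild-type and at 10.7, 11.9 and 13.9 CPM in zQ175 mice. In Msh3-/- mice it was at 9.63, 13.1 and 14.7 CPM and in zQ175:Msh3-/- mice at 10.9, 11.7 and 14.6 CPM. Wild-type mice were the highest group, and the zQ175 range overlapped theirs only at its top, while the 2 groups without Msh3 overlapped almost wholly. P2ry13 fell by 0.30 on the log2 scale in zQ175 against wild-type mice (SE 0.0724, adjusted p = 0.00163, exact permutation p = 0.000777). In zQ175:Msh3-/- against Msh3-/- mice the log2 fold change was -0.08 (SE 0.0739, adjusted p = 0.468). The difference between these effects was 0.22, with a 95% interval from 0.01 to 0.43 and an adjusted p of 0.999.

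Cx3cr1, the receptor for the neuronal chemokine fractalkine, lay at 58.6, 62.6 and 72.9 CPM in wild-type, 54.6, 57.2 and 60.7 CPM in zQ175, 54.3, 61.5 and 65.2 CPM in Msh3-/- and 50.5, 54.3 and 58.7 CPM in zQ175:Msh3-/- mice. Each zQ175 group was the lower of its pair and overlapped its control, and the median of zQ175 mice lay below the lowest wild-type mouse. The log2 fold change was -0.17 in zQ175 against wild-type mice (SE 0.0410, adjusted p = 0.0022) and -0.15 in zQ175:Msh3-/- against Msh3-/- mice (SE 0.0414, adjusted p = 0.00851), both under 1.2-fold. Its adjusted p averaged over both Msh3 genotypes was 4.43e-05.

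Fcrls, an Fc receptor-like scavenger protein of microglia, lay at 18.8, 21.9 and 25.3 CPM in wild-type and 16.0, 17.9 and 21.7 CPM in zQ175 mice, with 18.4, 19.6 and 24.0 CPM in Msh3-/- and 15.7, 18.7 and 21.5 CPM in zQ175:Msh3-/- mice. All 4 ranges overlapped. Its log2 fold change was -0.24 in zQ175 against wild-type mice (SE 0.0783, adjusted p = 0.0178) and -0.11 in zQ175:Msh3-/- against Msh3-/- mice (SE 0.0794, adjusted p = 0.346).

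Gpr34, a receptor for lysophosphatidylserine, lay at 12.4, 14.2 and 16.8 CPM in wild-type, 10.5, 12 and 14.4 CPM in Msh3-/-, 9.83, 12.4 and 16.1 CPM in zQ175 and 9.30, 10.9 and 11.9 CPM in zQ175:Msh3-/- mice. Mice with neither allele and mice with both did not overlap. Between those 2 groups it fell by 0.40 on the log2 scale (SE 0.0876, adjusted p = 0.000587). In that comparison P2ry13 and Sparc also fell, which is 9.38% of the 32 genes beside 12% of all genes. The zQ175 effect on Gpr34 was -0.19 with Msh3 and -0.20 without it, with adjusted p of 0.107 and 0.0964.

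Sparc, a matrix protein made by microglia and also by other brain cells, lay at 187.1, 232.2 and 302.7 CPM in wild-type and 159.6, 200.4 and 230.6 CPM in zQ175 mice. It lay at 204.3, 228.7 and 315.1 CPM in Msh3-/- and 152.9, 190.0 and 203.8 CPM in zQ175:Msh3-/- mice. The last pair of groups did not overlap, though only narrowly (203.8 against 204.3 CPM at their nearest), and the first pair did. Sparc fell by 0.29 in zQ175 against wild-type mice (SE 0.0922, adjusted p = 0.0196) and by 0.35 in zQ175:Msh3-/- against Msh3-/- mice (SE 0.0924, adjusted p = 0.00543) on the log2 scale. The first of these calls was lost without wild-type male 2 (-0.23, adjusted p = 0.0564), and also, by its size, without zQ175 female 3 or zQ175 female 4 (-0.25 in each). It was also lost in a limma fit of log2(TPM + 0.1), with -0.22 (adjusted p = 0.0884).

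Markers of other cells that can make Sparc were also lower in part. The summed level of 5 endothelial markers ran from 152.7 to 174.3 CPM in wild-type, 103.4 to 148.8 CPM in zQ175, 124.9 to 186.1 CPM in Msh3-/- and 119.3 to 148.8 CPM in zQ175:Msh3-/- mice, and none of the 5 was at 0 in any group. Of the 5, averaged over both Msh3 genotypes, 4 were lower at an adjusted p under 0.05 and 1 of them, the angiopoietin receptor Tek, fell by 0.31 on the log2 scale, beside 18.7% of all genes lower and 13.7% called. In zQ175 against wild-type mice 4 of the 5 were lower by the adjusted p, beside 13.5% of all genes. There 2 were called, beside 11.6% of all genes, and the summed ranges did not overlap. In zQ175:Msh3-/- against Msh3-/- mice 1 of the 5 was lower by the adjusted p, none was called, and the summed ranges overlapped. Of 6 astrocyte markers, 5 were lower in the average by the adjusted p and none by 1.2-fold. In zQ175 against wild-type mice 3 were lower by the adjusted p and 1 of them was called. In zQ175:Msh3-/- against Msh3-/- mice 3 were lower and none was called. Their summed level ran from 3464.6 to 3780.9 CPM in wild-type and from 2929.5 to 3214.5 CPM in zQ175 mice. It ran from 3229.2 to 3762.7 CPM in Msh3-/- and from 2948.8 to 3427.1 CPM in zQ175:Msh3-/- mice. The part of these cell types in the Sparc values was not tested.

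The other homeostatic genes differed by less. Averaged over both Msh3 genotypes, Olfml3, a secreted glycoprotein, had a log2 fold change of -0.14 (adjusted p = 0.00652), Tmem119 -0.12 (adjusted p = 0.0227) and Csf1r -0.10 (adjusted p = 0.0163). P2ry12, the receptor that guides microglial processes to released nucleotides, had -0.09 (adjusted p = 0.111). The lectin Siglech, at -0.08, and the adhesion ligand Selplg, at -0.11, did not pass either. Sall1 was the sole microglia gene that was higher, with 0.12 (SE 0.0412, adjusted p = 0.024), under 1.2-fold.

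**Figure D3:**
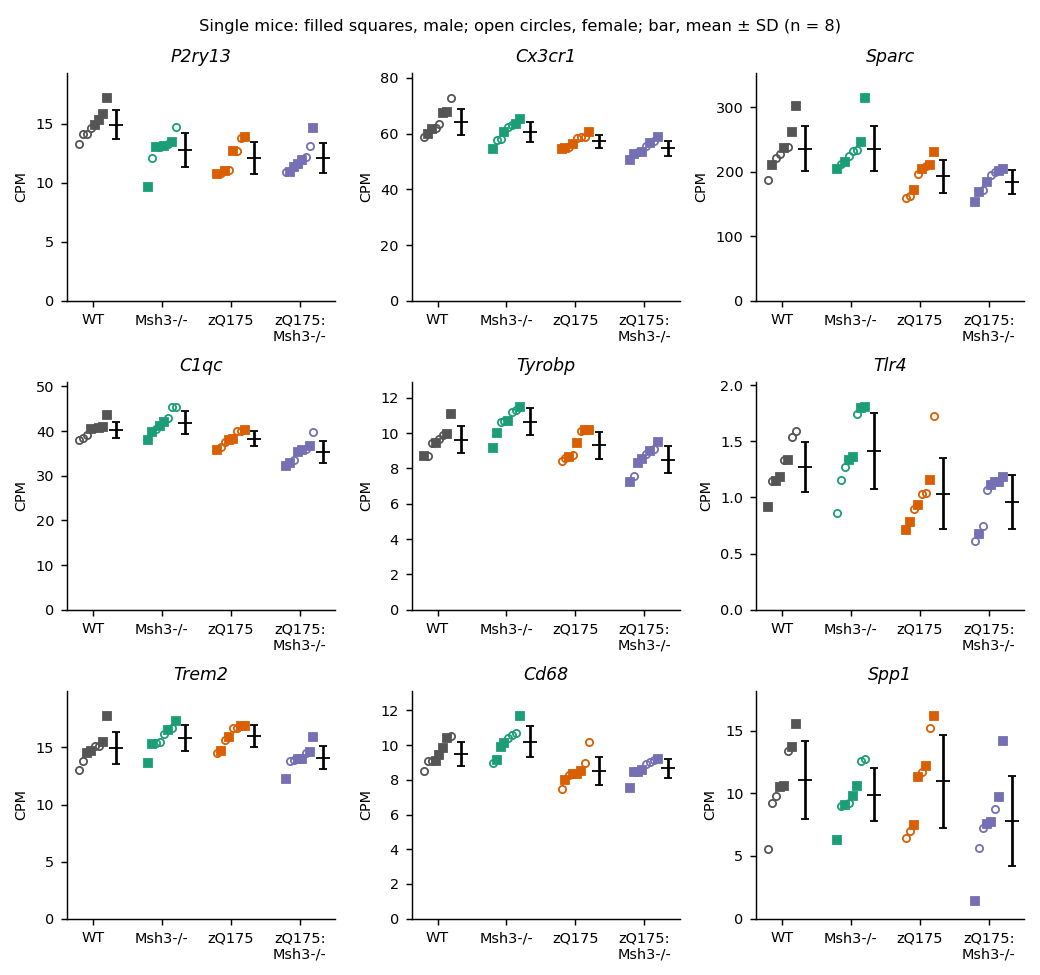
CPM of 9 microglia genes in single mice by genotype, with axes from 0; filled squares are males, open circles females, and bars show the mean ± SD of 8 mice. The zQ175 groups sit low for P2ry13, Cx3cr1 and Sparc but mostly overlap their controls, and Spp1 spreads from 1.44 to 16.2 CPM with no order of the genotypes.

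Among the general microglial genes the subunits of C1q, which start the classical complement pathway and are made in the brain mainly by microglia, were lower by the adjusted p in zQ175:Msh3-/- against Msh3-/- mice, each by under 1.2-fold. Their genes lie side by side on the minus strand of mouse chromosome 4, from 136880129 to 136898803 (GRCm38), over 18675 bases. C1qa lay at 44.1, 47.4 and 48.9 CPM in wild-type, 40.9, 43.1 and 46.8 CPM in zQ175, 45.4, 50.5 and 53.7 CPM in Msh3-/- and 37.8, 44.0 and 45.9 CPM in zQ175:Msh3-/- mice. The zQ175 groups were the lower of each pair, and both overlapped their controls. The log2 fold change of C1qa was -0.11 in zQ175 against wild-type mice (SE 0.0412, adjusted p = 0.0422) and -0.22 in zQ175:Msh3-/- against Msh3-/- mice (SE 0.0413, adjusted p = 0.000127).

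C1qb and C1qc are given here after their values were seen. C1qc lay at 38.0, 40.5 and 43.6 CPM in wild-type, 35.8, 38.1 and 40.3 CPM in zQ175, 38.0, 41.6 and 45.5 CPM in Msh3-/- and 32.1, 35.6 and 39.8 CPM in zQ175:Msh3-/- mice. The last group was the lowest, though its highest mouse reached into the others. In zQ175:Msh3-/- against Msh3-/- mice C1qb had a log2 fold change of -0.26 (SE 0.0506, adjusted p = 0.000214) and C1qc of -0.25 (SE 0.0416, adjusted p = 1.68e-05), both just under 1.2-fold. In zQ175 against wild-type mice these were -0.10 (adjusted p = 0.137) and -0.07 (adjusted p = 0.211).

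The bases before a gene's start carry the sites through which its transcription is set. The windows of C1qb and P2ry13 are printed because the first stands for the 3 neighbouring C1q genes, which were lower by the adjusted p in zQ175:Msh3-/- against Msh3-/- mice, and the second fell between zQ175 and wild-type mice. Both are the 250 bases before the RefSeq start on GRCm38.p6, written 5′ to 3′ on the gene's strand, with GAGGAA or its reverse complement TTCCTC in capitals. GAGGAA is the core that PU.1, the factor encoded by Spi1 that all macrophages need, is known to prefer, and it was chosen after the sequences were seen. The C1qb window, at chr4:136886201-136886450 on the minus strand, lies in no annotated gene and holds 1 match, which starts 30 bases before the start of the gene. The P2ry13 window, at chr3:59210883-59211132 on the minus strand, lies in an intron of Med12l, a gene of the opposite strand, and holds 1 match, 48 bases before the start.
C1qb: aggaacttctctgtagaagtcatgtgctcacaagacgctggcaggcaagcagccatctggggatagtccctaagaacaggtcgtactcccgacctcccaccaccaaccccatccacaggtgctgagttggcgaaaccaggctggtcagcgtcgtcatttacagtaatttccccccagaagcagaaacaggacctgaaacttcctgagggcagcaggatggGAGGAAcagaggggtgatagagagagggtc
P2ry13: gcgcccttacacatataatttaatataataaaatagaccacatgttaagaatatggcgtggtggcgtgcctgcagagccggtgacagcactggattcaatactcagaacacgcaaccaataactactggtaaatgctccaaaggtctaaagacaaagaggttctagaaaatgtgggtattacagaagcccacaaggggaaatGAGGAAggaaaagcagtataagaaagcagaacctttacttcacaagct
RefSeq promoter entries were given for 25 of the 34 genes, of which 13 held GAGGAA on either strand within the 250 bases, beside 25.9% of 27025 genes with an entry. Tmem119, Csf1r, Gpr34, Selplg, C1qa, Tyrobp, Cd52, Tlr4 and Cd14 had no entry.

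Tyrobp, also known as DAP12, the adaptor through which TREM2 signals, lay at 9.17, 10.7 and 11.5 CPM in Msh3-/- and 7.23, 8.68 and 9.48 CPM in zQ175:Msh3-/- mice. The ranges overlapped only narrowly. In wild-type mice it was at 8.71, 9.57 and 11.1 CPM and in zQ175 mice at 8.44, 9.08 and 10.2 CPM, which overlapped almost wholly. Without Msh3 it fell by 0.32 on the log2 scale (SE 0.0634, adjusted p = 0.000199, exact permutation p = 0.000311), and with Msh3 the log2 fold change was -0.05 (SE 0.0627, adjusted p = 0.664). The average over both Msh3 genotypes was -0.18 (adjusted p = 0.00102). Trem2 itself, chosen after its values were seen, lay at 13, 14.9 and 17.8 CPM in wild-type, 14.5, 16.3 and 16.9 CPM in zQ175, 13.6, 15.8 and 17.3 CPM in Msh3-/- and 12.2, 14.0 and 15.9 CPM in zQ175:Msh3-/- mice. Its estimate was above 0 with Msh3, at 0.10 (adjusted p = 0.21), and below 0 without it, at -0.16 (adjusted p = 0.0313).

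Tlr4, the endotoxin receptor, was near the lowest level at which a gene was tested, with 9 to 34 reads per mouse. It lay at 0.914, 1.25 and 1.59 CPM in wild-type, 0.711, 0.98 and 1.73 CPM in zQ175, 0.865, 1.34 and 1.81 CPM in Msh3-/- and 0.615, 1.09 and 1.18 CPM in zQ175:Msh3-/- mice. All groups overlapped, and the highest zQ175 mouse was above every wild-type mouse. Tlr4 fell by 0.56 on the log2 scale in zQ175:Msh3-/- against Msh3-/- mice (SE 0.18, adjusted p = 0.0207), and in zQ175 against wild-type mice its log2 fold change was -0.33 (SE 0.178, adjusted p = 0.182). The call was lost in the limma fits of TPM, where the value was -0.32 (adjusted p = 0.23) with a pseudocount of 0.1 and -0.15 (adjusted p = 0.223) with a pseudocount of 1.

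Aif1, the calcium-binding protein stained as IBA1 to show microglia, lay at 2.86, 3.58 and 3.97 CPM in wild-type and 2.67, 2.98 and 3.78 CPM in zQ175 mice, with 3.02, 3.48 and 4.04 CPM in Msh3-/- and 2.59, 3.13 and 3.85 CPM in zQ175:Msh3-/- mice. These ranges overlapped broadly. Its log2 fold change was -0.19 with Msh3 (SE 0.0924, adjusted p = 0.123), -0.16 without it (SE 0.0933, adjusted p = 0.272) and -0.18 averaged over both (adjusted p = 0.0304). Fcgr3, a receptor for antibody, lay at 7.30, 9.65 and 11.0 CPM in wild-type, 7.54, 8.40 and 10.4 CPM in zQ175, 8.12, 9.05 and 9.70 CPM in Msh3-/- and 7.42, 8.07 and 10.1 CPM in zQ175:Msh3-/- mice. Again every group overlapped every other. Its log2 fold change was -0.16 with Msh3 (SE 0.0775, adjusted p = 0.131) and -0.12 without it (SE 0.0789, adjusted p = 0.30).

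Of the other general genes, the tetraspanin Cd53 had -0.17 averaged over both Msh3 genotypes (adjusted p = 0.0224). Laptm5, a lysosomal membrane protein, had -0.06, the Fc receptor chain Fcer1g -0.10, Ly86, a partner of a Toll-like protein, -0.03 and the leukocyte phosphatase Ptprc -0.007, with adjusted p between 0.194 and 0.955. Cd52, a surface glycoprotein of leukocytes with 8 to 28 reads per mouse, had 0.10 (SE 0.141, adjusted p = 0.604), so that changes of its size could not be resolved at this depth.

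None of the 6 tested activated genes rose in zQ175 mice. Cd68 lay at 8.50, 9.27 and 10.5 CPM in wild-type, 7.46, 8.34 and 10.2 CPM in zQ175, 8.96, 10.2 and 11.7 CPM in Msh3-/- and 7.52, 8.73 and 9.22 CPM in zQ175:Msh3-/- mice. The zQ175 groups were the lower of each pair and overlapped their controls. Its log2 fold change was -0.16 with Msh3 (SE 0.0627, adjusted p = 0.053) and -0.24 without it (SE 0.0629, adjusted p = 0.00488), under 1.2-fold. Axl lay at 40.5, 42.9 and 48.5 CPM in wild-type, 38.2, 41.1 and 46.0 CPM in zQ175, 40.8, 46.0 and 49.2 CPM in Msh3-/- and 38.0, 40.2 and 41.5 CPM in zQ175:Msh3-/- mice. The last 2 groups barely overlapped. Its log2 fold change was -0.08 with Msh3 (SE 0.0417, adjusted p = 0.161) and -0.18 without it (SE 0.042, adjusted p = 0.00154).

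Tlr2, a receptor for bacterial lipoproteins, had 12 to 36 reads per mouse. It lay at 1.23, 1.69 and 1.88 CPM in wild-type, 1.03, 1.26 and 1.88 CPM in zQ175, 0.899, 1.29 and 1.85 CPM in Msh3-/- and 0.914, 1.18 and 2.10 CPM in zQ175:Msh3-/- mice. The groups overlapped over most of their ranges. Its log2 fold change was -0.29 with Msh3 (SE 0.169, adjusted p = 0.221) and -0.09 without it (SE 0.174, adjusted p = 0.767). Spp1, given after its values were seen, lay at 5.59, 10.5 and 15.5 CPM in wild-type, 6.42, 11.5 and 16.2 CPM in zQ175, 6.26, 9.48 and 12.7 CPM in Msh3-/- and 1.44, 7.62 and 14.2 CPM in zQ175:Msh3-/- mice. The spread between mice was larger than any difference between genotypes: the 95% interval of the zQ175 effect ran from -0.52 to 0.51 with Msh3 and from -0.88 to 0.20 without it.

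The remaining activated genes did not pass either. Averaged over both Msh3 genotypes, the endotoxin co-receptor Cd14 had a log2 fold change of -0.07 with an interval from -0.25 to 0.10, and Lyz2, the lysozyme of myeloid cells, of -0.09 with an interval from -0.25 to 0.06. Cst7 and Itgax, which mark the activated state, were low in every genotype, with at most 10 and 13 reads in any mouse. The medians were 0.105 CPM in wild-type and 0.138 CPM in zQ175 mice for Cst7, and 0.247 CPM and 0.353 CPM for Itgax, with ranges that overlapped. Neither was tested in the fit of all mice, and differences at this level were hard to resolve at this depth. In females alone Itgax passed the filter on low counts, with estimates above 0 that did not pass the adjusted p. Its log2 fold change there was 0.94 with Msh3 (SE 0.536, adjusted p = 0.259) and 0.34 without it (SE 0.477, adjusted p = 0.746).

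**Figure D4:**
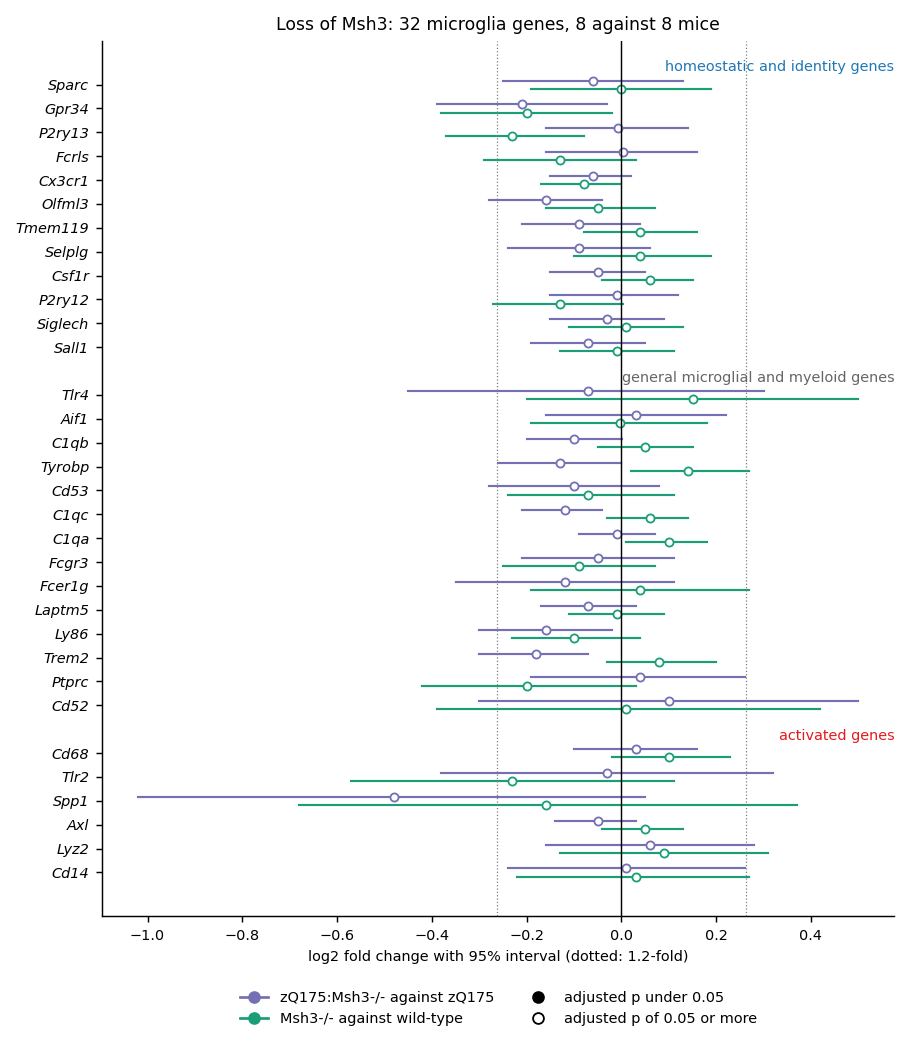
Log2 fold change with its 95% interval for loss of Msh3 in 32 microglia genes, grouped as in the plot of the zQ175 allele, in zQ175 mice (purple) and in mice without the zQ175 allele (green), 8 mice against 8. No dot is filled, since no adjusted p was under 0.05, and Spp1 has the widest intervals.

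No microglia gene passed the test across all genes for loss of Msh3. In zQ175:Msh3-/- against zQ175 mice edgeR called 0 of 32 genes, and 0.00602% of all genes (1 gene, Msh3). At an unadjusted p under 0.05 there were 6 microglia genes, all lower, which is 18.8% beside 3.70% of all genes, and DESeq2 and limma also called 0. They were Trem2 (-0.18, 95% interval -0.30 to -0.07), C1qc (-0.12), Olfml3 (-0.16), Gpr34 (-0.21), Ly86 (-0.16) and Tyrobp (-0.13), all with an adjusted p of 0.999. These 6 were chosen after their values were seen. Over the 32 genes the median log2 fold change was -0.06, beside 0.003 for all genes.

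In Msh3-/- against wild-type mice edgeR, DESeq2 and limma again called 0 of 32 genes, beside 0.00602% of all genes. At an unadjusted p under 0.05 there were 5 microglia genes, 15.6% beside 5.09% of all genes, of which P2ry13 (-0.23, 95% interval -0.37 to -0.08), Gpr34 (-0.20) and Cx3cr1 (-0.08) were lower and C1qa (0.10) and Tyrobp (0.14) higher. Averaged over both Htt genotypes edgeR, DESeq2 and limma called 0, beside 0.00602% of all genes, and 5 genes, or 15.6%, had an unadjusted p under 0.05, beside 4.67% of all genes. The strongest was Gpr34 (-0.21, 95% interval -0.33 to -0.08, adjusted p = 0.991).

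No microglia gene passed the adjusted test of a difference in the zQ175 effect between mice with and without Msh3. For this interaction edgeR, DESeq2 and limma called 0 of 32 genes and 0% of all genes. At an unadjusted p under 0.05 there were 5, or 15.6%, beside 4.44% of all genes: Trem2 (-0.26, 95% interval -0.42 to -0.10), Tyrobp (-0.27, -0.45 to -0.09), C1qc (-0.18, -0.30 to -0.06) and C1qb (-0.15) were lower without Msh3 and P2ry13 (0.22) the other way, all with an adjusted p of 0.999. The larger number of lower genes without Msh3 than with it, 13 against 5, was not itself tested, and for none of them did the difference pass the adjusted test. Over the 32 genes the interaction estimates had a median of -0.06, beside 0.004 for all genes.

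Among signals that reach microglia from other cells, a ligand fell and another rose. Cx3cl1, fractalkine, the neuronal ligand of CX3CR1, lay at 613.2, 684.9 and 737.0 CPM in wild-type and 478.3, 499.3 and 567.2 CPM in zQ175 mice, with no overlap. It fell by 0.43 on the log2 scale with Msh3 (adjusted p = 1.02e-09) and by 0.44 without it (adjusted p = 7.23e-10). Cd200, a neuronal surface protein that restrains microglia, moved the other way: it lay at 36.2, 39.5 and 47.9 CPM in wild-type and 50.3, 54.0 and 59.8 CPM in zQ175 mice, also with no overlap, and rose by 0.43 (adjusted p = 2.13e-07) and 0.46 (adjusted p = 9.61e-08). The list of ligands and survival signals also holds receptors, among them Tgfbr1, which is counted again in the further homeostatic genes below. Averaged over both Msh3 genotypes 1 of 10 tested genes of this list fell and 1 rose, which is 20% called beside 13.7% of all genes. In addition, 4 others were lower under 1.2-fold. Among these was Il34, which also acts on CSF1R, with a log2 fold change of -0.16 (adjusted p = 8.95e-05), while Csf1 had 0.13 (adjusted p = 0.148).

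Other lists of microglial biology stood as follows, averaged over both Msh3 genotypes, where 13.7% of all genes were called. Of 14 further homeostatic genes, 2 fell, which is 14.3%, and 5 more were lower under 1.2-fold: the G-protein regulator Rgs10 fell by 0.38 on the log2 scale (adjusted p = 3.48e-10) and the ectonucleotidase Entpd1 by 0.29 (adjusted p = 4.13e-06). Rgs10 is also made by neurons. Of 13 tested further activated genes none fell or rose, and the lipid carrier Apoe, mainly of astrocytes, at -0.19 and the protease Ctsd at -0.10 were lower under 1.2-fold. In zQ175 against wild-type mice the lectin Clec7a rose by 0.77 (SE 0.296, adjusted p = 0.0491), with 4 to 18 reads per mouse in zQ175 and 3 to 11 in wild-type mice, and without Msh3 its log2 fold change was -0.29 (adjusted p = 0.523). The 5 activated genes not tested were Ccl3, Ccl4, Il1b, Tnf and Ch25h.

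Of 8 myeloid transcription factors 1, or 12.5%, was called: Cebpa fell by 0.44 (adjusted p = 1.97e-09), while Spi1, which encodes PU.1, had -0.09 (adjusted p = 0.32). By the adjusted p alone 2 of the 8 were lower, Cebpa among them, and 1 was higher, beside 18.7% of all genes lower and 20.9% higher. Cebpa lay at 13.1, 14.7 and 16.8 CPM in Msh3-/- and 9.98, 10.3 and 12.1 CPM in zQ175:Msh3-/- mice, with no overlap. None of 9 tested genes of TREM2 and Fc receptor signalling was called or passed the adjusted p alone by edgeR, and 0 had an unadjusted p under 0.05. Of 8 complement components and receptors none was called, and the integrin chain Itgb2, at -0.17 (adjusted p = 0.00883), was among those lower under 1.2-fold. The complement component C3 had -0.01 (adjusted p = 0.963).

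**Figure D5:**
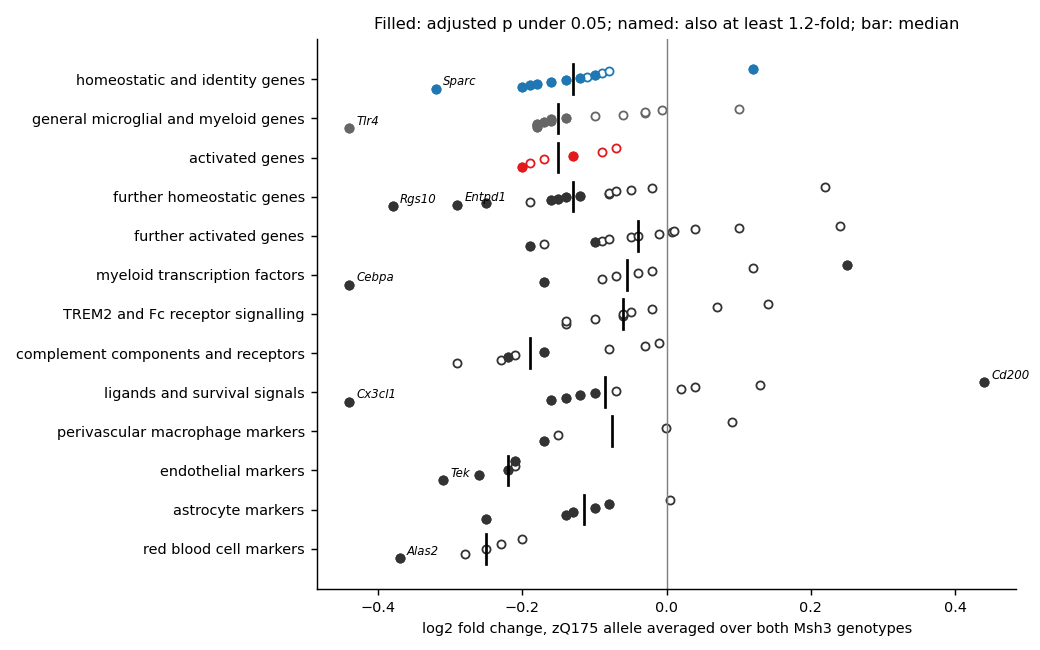
Log2 fold change of single genes for the zQ175 allele averaged over both Msh3 genotypes, by list, with a bar at each list's median; filled dots have an adjusted p under 0.05, and genes that also changed by at least 1.2-fold are named. The 3 roles of the microglia genes have medians from -0.15 to -0.13, Tlr4, Cebpa and Cx3cl1 lie lowest, each at -0.44, and Cd200 highest, at 0.44.

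Markers of other immune cells stayed low. The 9 lymphocyte and neutrophil markers had at most 9 reads in any mouse, and their summed level was 0.356 to 0.853 CPM in wild-type, 0.320 to 0.660 CPM in Msh3-/-, 0.236 to 0.908 CPM in zQ175 and 0.205 to 1.06 CPM in zQ175:Msh3-/- mice, with Cd3g and Ngp at 0 in all wild-type mice. The 8 perivascular macrophage markers summed to 19.5 to 25.4, 19.0 to 25.8, 18.7 to 24.7 and 16.6 to 21.3 CPM in these groups, none was at 0 in a whole group, and averaged over both Msh3 genotypes none of the 4 tested was called, while the scavenger receptor Stab1 was lower under 1.2-fold, at -0.17 (adjusted p = 0.00838). Their part, and that of blood in the vessels, whose 5 red blood cell markers summed to 168.0 to 306.4 CPM in wild-type and 108.3 to 277.8 CPM in zQ175 mice, in the microglia values was not tested. Averaged over both Msh3 genotypes all 5 red blood cell markers had estimates below 0, with a median of -0.25, and 1 of them, Alas2, an enzyme of heme synthesis, fell by 0.37 on the log2 scale (adjusted p = 0.045).

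The summed level of each role shows how far the groups overlapped. The 12 homeostatic and identity genes summed to 551.0 to 698.6 CPM in wild-type, 557.3 to 700.8 CPM in Msh3-/-, 491.8 to 599.4 CPM in zQ175 and 462.9 to 557.2 CPM in zQ175:Msh3-/- mice. Sparc made up a large share of this: without it the sums were 333.9 to 395.9, 332.5 to 385.7, 319.3 to 377.0 and 310.0 to 357.2 CPM, and all groups overlapped. The 14 general genes summed to 220.5 to 251.1 CPM in wild-type, 228.2 to 248.2 CPM in Msh3-/-, 208.0 to 232.4 CPM in zQ175 and 191.5 to 224.8 CPM in zQ175:Msh3-/- mice, so that zQ175:Msh3-/- mice lay wholly below Msh3-/- mice. The 8 activated genes summed to 65.8 to 86.7, 72.4 to 80.4, 61.1 to 76.1 and 59.5 to 76.4 CPM, with overlap throughout. Axl and Spp1 made up most of this. Without them the sums were 18.6 to 23.0, 18.9 to 22.6, 16.5 to 22.1 and 16.4 to 20.7 CPM, again with overlap throughout.

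Males and females were also fitted apart. Averaged over both Msh3 genotypes, 15 of 32 microglia genes tested in males were lower at an adjusted p under 0.05, which is 46.9% beside 13% of all genes in that fit, with a median log2 fold change of -0.17. In females, where Itgax also passed the filter, it was 5 of 33, which is 15.2% beside 12.1% of all genes. The median there was -0.08. Estimates were below 0 for 31 of the 32 in males and 25 of the 33 in females. None was higher at that threshold in either sex. With the fold change of at least 1.2, Sparc, Tyrobp and Tlr4 in zQ175:Msh3-/- against Msh3-/- mice were not called in males alone (-0.43, -0.28 and -0.58). Those called there were Cd68 (-0.28), Olfml3 (-0.29), C1qb (-0.27), Tmem119 (-0.28) and Selplg (-0.31). In females alone these had -0.17, -0.05, -0.22, -0.05 and -0.04, and none of them was called. Tyrobp was called in females alone but not Sparc (-0.26) or Tlr4 (-0.67). The difference between the sexes was not tested, and the sexes are 17 and 15 mice. The share of all genes called at both thresholds within 1 sex is not given here, so the calls cannot be set beside it.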

How the data were processed

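Striatal RNA of 32 mice was sequenced after poly(A) selection as paired reads. The deposited counts are whole numbers of reads for each gene, not normalized, from reads that the authors aligned to GRCm38.p6; the aligner, the counting program and its strand setting are not given in the sources used here. The authors also deposited values normalized for length and depth, in a table named for FPKM, which were treated as TPM because each of its columns sums to 1000000. Genotype, sex and replicate came from the sample labels, and the sample identifier in each column's name gave its mouse.

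The main test on the counts was edgeR's quasi-likelihood test (edgeR 4.0.16, R 4.3.3), after TMM normalization and filterByExpr, which kept 16610 genes, in 1 robust model of the 4 genotypes. A call needed a Benjamini-Hochberg adjusted p under 0.05 over all genes tested and a fold change of at least 1.2. Intervals are 95% intervals of the fit. CPM are scaled by TMM. For microglia genes an exact permutation test (two-sided) of log2 CPM was added, whose 12870 arrangements of 8 mice against 8 allow no p below 0.000155. The mice are separate animals. Between mice of a genotype the counts differed by at least 4.13 times the sampling variance (chi-square per degree of freedom), so none was counted as a repeat. The methods were tested on simulated data.

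The microglia genes and all lists were chosen with earlier results of these data known. Values in each genotype were given for genes called in at least 1 of 8 comparisons and, in each role, for the 3 with the smallest p in zQ175 against wild-type mice. Of the other lists, at most 6 genes each are given with values, and not all of these were called. Alternatives were DESeq2 1.42.0 without independent filtering, RLE size factors, no filter, at least 10 counts in each mouse, a replicate block or sex as a model term, each sex alone, only the groups of a comparison, other thresholds, limma 3.58.1 with a pseudocount of 0.1 or 1 on the log2(TPM + pseudocount) scale, where fold changes of low genes are understated, with a mean of at least 0.1 TPM or without a filter, and leaving out each mouse. Promoter sequences are RefSeq entries on GRCm38.p6, and gene positions are from GENCODE M21. Python 3.11.15 was used for summaries and figures. The result for 1 gene of the other lists is not reported here.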

Additional observations from a re-analysis of the deposited data

Results flagged for a closer look

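In 8 of 128 sets of 8 mice of a genotype (32 genes in 4 genotypes), the highest or the lowest mouse lay far from the rest by Dixon's ratio, the gap to its nearest neighbour divided by the whole range; the ratio passed its 95% critical value for 8 mice in each. Chance gives about 1 in 20 such sets, or 6.4 of 128.

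Among Msh3-/- mice, P2ry13 was at 9.63 CPM in male 4, with the others between 12.1 and 14.7 CPM (ratio 0.535). Fcrls was at 24.0 CPM in female 1, with the others between 18.4 and 20.5 CPM (0.602). Sparc was at 315.1 CPM in male 1, with the others between 204.3 and 246.0 CPM (0.571). Laptm5 was at 32.6 CPM in female 3, with the others between 38.4 and 41.7 CPM (0.664).

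Among zQ175:Msh3-/- mice, male 4 was lowest for Fcer1g, at 2.62 CPM beside 4.27 to 5.64 CPM (0.635), and for Spp1, at 1.44 CPM beside 5.60 to 14.2 CPM (0.592). That mouse also had the highest summed choroid plexus markers of all mice, at 2917.2 CPM, and the part of this in its microglia values was not tested. Cd68 was at 7.52 CPM in male 5, with the others between 8.44 and 9.22 CPM (0.565). In zQ175 mice, Lyz2 was at 7.39 CPM in female 2, the most shallowly sequenced mouse, with the others between 4.74 and 5.81 CPM (0.541).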

How the results depend on the processing

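DESeq2, RLE size factors, no filter and sex in the model left the counts of called microglia genes in all 8 comparisons within 1.5 times the main counts, as did fits of only the groups compared in the 5 comparisons of 2 groups, where they were run. Loss of Msh3 and the interaction gave 0 calls under every alternative run for them. Of 11152 values of single genes under alternatives, 11079 stayed on their side of the thresholds, 36 lost a call, 37 gained one and 0 called genes turned direction. These values cover 256 results, a gene in a comparison each, and most of those were not called in the main fit. Such results had no call to lose, so the 36 losses all fell on the few called ones. Among results not called, 336 values changed sign. Where a count or median moved, the cause was not tested beyond what the setting itself removes.

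Called genes numbered 2 in zQ175 against wild-type mice, 3 in zQ175:Msh3-/- against Msh3-/-, 2 averaged over both Msh3 genotypes and 3 in zQ175:Msh3-/- against wild-type. A fold change of at least 1.5 gave 0 in each, and the adjusted p alone gave 5, 13, 19 and 13. A minimum of 10 counts in every mouse, which removes Tlr4, gave 1 averaged over both genotypes. Males alone gave 1 and 5 in the first and second and 6 in zQ175:Msh3-/- against wild-type, and females alone 1, 1, 0 and 1. The shares of all genes called in these fits of 1 sex are not given here. All 3 limma fits of TPM gave 0, 1 and 0 in the first 3, where the call left was Sparc; P2ry13 and Tyrobp still passed the adjusted p there but not the fold change.

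Genes lower by the adjusted p alone (5, 13 and 18 in the first 3 comparisons) numbered 1 in the first in males alone, 1, 2 and 5 in females alone, and 1, 5 and 7 under limma, with 6 in the third without a filter. The median log2 fold change over all microglia genes moved from -0.08 to -0.16 in males alone in the first. It moved from -0.16 to -0.08 under limma with log2(TPM + 1) in the second, where that of all genes moved from 0.01 to 0.06. In the third it moved from -0.14 to -0.07, -0.06 and -0.07 under limma with TPM + 0.1, TPM + 1 and no filter. The median of all genes moved from 0.01 to 0.08, 0.05 and 0.06 in those fits. In females alone the homeostatic median moved from -0.15 to -0.05 in the second and from -0.13 to -0.04 in the third, and the general median from -0.15 to -0.07 in the third.

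Leaving out each mouse gave 1 to 4, 3 to 5, 2 to 2 and 3 to 6 called genes in the 4 comparisons, and 3 to 8, 10 to 14 and 16 to 19 lower by the adjusted p alone in the first 3. The first comparison had 1 call without wild-type male 2 or zQ175 female 4 and 4 without zQ175 female 2; the second had 5 without Msh3-/- male 2 or zQ175:Msh3-/- female 1; zQ175:Msh3-/- against wild-type had 6 without zQ175:Msh3-/- female 1 or female 3. The lower genes in the first numbered 3 without wild-type male 2 and 8 without zQ175 female 2.

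Replicate numbers were not shown to pair mice: over 45 same-numbered pairs the deviations correlated between -0.13 and 0.28 (median 0.05), and 4 of 32 mice correlated best with their own number. With the replicate block the called genes numbered 2, 3, 2 and 3, and the lower genes 7, 12 and 17. Depth limits Tlr4, Tlr2 and Cd52, and more so Cst7 and Itgax, at 1 to 13 reads per mouse; 3 reads are 2.43e-05% of the shallowest mouse's total.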
